A study of Mus musculus with 8 samples.

Results

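Fatty acid uptake and oxidation genes were followed in the heart ventricle of mouse embryos in which Lem2 was targeted. The set holds 41 genes of the 15358 listed in the deposited counts table, chosen by symbol, and each of the 41 was present and passed the filter on low counts. RNA came from whole ventricle at embryonic day 14.5. The conditional knockout (cKO) embryos carried the transgene labelled XMLC2V, a Cre line, together with floxed Lem2 alleles (genotype XMLC2V; Lem2 f/f), and the control embryos carried Lem2 f/f alone. The floxed alleles are thus shared by both groups, and the labels do not say in which cells the Cre is active. The comparison rests on 4 cKO and 3 control libraries, and the fourth control sample of the labels was not analysed here.

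In a heart cell, fatty acids are released from blood lipoproteins by lipoprotein lipase, cross the membrane with the help of CD36 and the transport proteins of the SLC27 family, and are carried in the cytosol by the binding protein FABP3. Acyl-CoA synthetases activate them, the carnitine shuttle brings them into the mitochondrial matrix, and repeated rounds of dehydrogenation, hydration, a second dehydrogenation and thiolytic cleavage shorten the chain. The fetal heart runs largely on glucose and lactate and turns to fatty acids after birth, when the nuclear receptors PPAR alpha and the estrogen-related receptors, with the coactivator PGC-1, drive these genes.

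Libraries held 28921922 to 39351262 counts. Pairs of libraries of the same group had r = 0.991 to 0.995 over genes, and pairs from different groups 0.990 to 0.994, as a description. Lemd2, the gene symbol of Lem2, lay at 18.5, 17.1, 16.3 and 13.7 CPM in the cKO libraries, against 36.8, 34.4 and 36.4 CPM in the controls, so the targeted gene followed the labels. cKO replicates 3 and 4 expressed Xist (1324 and 1102 CPM) and almost no Ddx3y, a Y-linked gene, while the other 5 libraries had 80.4 to 105 CPM of Ddx3y. All controls thus carried Y-linked expression, and sex is mixed in the cKO group. The heart muscle markers were present in every library, with a summed level over 10 markers of 38860 to 45400 CPM in cKO and 42982 to 45637 CPM in control. cKO replicate 1 held the lowest of these sums, and it also held 125 counts of Afp and 101 of Alb, both made chiefly by fetal liver, against 0 to 5 of Afp and 0 to 2 of Alb in the other 6 libraries.

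Taken as a set, the fatty acid genes lay slightly lower in cKO ventricle, and none of them passed the test over all genes. Their median log2 fold change (cKO over control) was -0.06, against -0.01 over all 14875 genes tested, and 32 of the 41 were negative (78%, against 52.1% of all genes). At an adjusted p under 0.05 in edgeR's quasi-likelihood test, 0 of 41 members were called lower and 0 higher, where 0.323% of all genes were called lower and 0.766% higher (1.09% in either direction). At an unadjusted p under 0.05, 9 members were lower and 2 higher, which is 22% of the members on the lower side, against 8.53% of all genes lower and 9.39% higher. DESeq2, run as an alternative, called 4 members lower (Cpt1b, Eci1, Echs1 and Cd36) and 1 higher (Acsl5), against 1.85% of all genes called lower and 4.79% called in either direction. The 9 lower members had 88.4 to 92.7% of their control mean in cKO, and the 2 higher had 109 to 112%. Whole ventricle was measured, so fewer heart muscle cells and less RNA per cell cannot be told apart. Macrophage markers moved with the groups as well: 10 of 10 had an unadjusted p under 0.05 on the higher side (1 called, C1qb), with sums of 104 to 121 CPM in cKO against 90.2 to 91.6 CPM in control, and their part in the fatty acid genes was not tested. Some other marker lists lay lower as well. Of 10 heart muscle markers 8 were negative (80%, median -0.05), close to the share and median of the fatty acid genes. At an unadjusted p under 0.05, 1 of them was lower and 1 higher. Epicardial and fibroblast markers had the same share, 8 of 10 (80%, median -0.04). Red cell markers were negative in 10 of 10 (median -0.30), with sums of 2466 to 2705 CPM in cKO and 1989 to 3757 CPM in control. Endothelial and endocardial markers were negative in 5 of 10 (median 0.01), with 1 lower and 3 higher at an unadjusted p under 0.05. Their sums were 1482 to 1519 CPM in cKO and 1405 to 1499 CPM in control. Smooth muscle and pericyte markers were negative in 3 of 8 (median 0.09), with 1 lower and 2 higher at that threshold. Their sums were 1544 to 2149 CPM in cKO and 1347 to 1554 CPM in control. The part of these lists in the result was not tested.

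**Figure D1:**
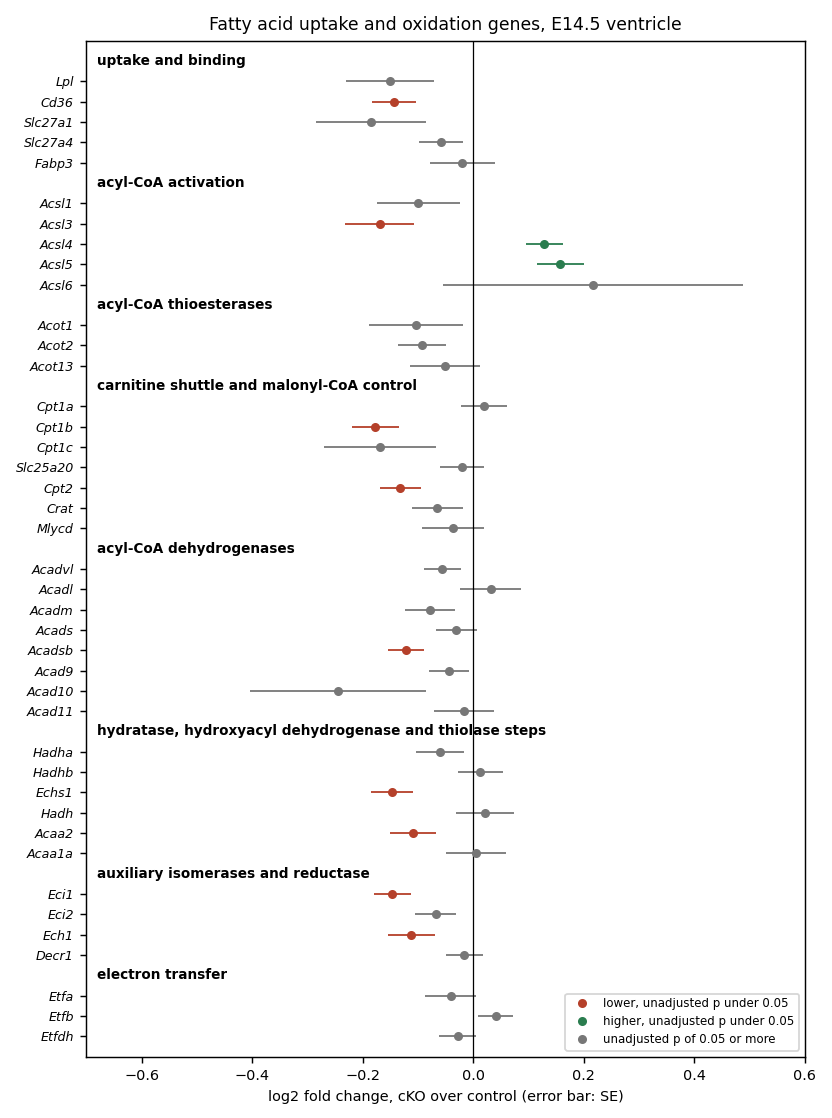
Log2 fold change, cKO over control, of the 41 fatty acid genes (x axis, error bars SE from edgeR), grouped by role from uptake to electron transfer (y axis). Red points are the 9 lower and green points the 2 higher members with an unadjusted p under 0.05, and most of the other points lie left of 0.

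Sequences upstream of the genes are shown because PPAR alpha and the estrogen-related receptors act on many genes of this pathway. RefSeq promoters (build GRCm38.p6, 250 bases before to 50 after the start) were found for 34 of the 41 genes. Each was searched on both strands for the PPAR direct repeat (a pair of hexamers AGGTCA with 1 base between them), the estrogen-related receptor element TCAAGGTCA, and the single hexamer AGGTCA that both of them contain. The direct repeat was in 0 of the 34 (0.0396% of all 32851 promoters), and the estrogen-related receptor element in 1, Acsl6 (0.423% of all promoters). At so low a share 0 of 34 says little, and inexact matches or sites outside the windows were not searched. Lpl, Cpt1b, Crat, Acad9, Decr1, Acaa2 and Acot13 had no promoter to search, and Cpt1b and Acaa2 are among the lower members. Since 3 of the 34 genes have several entries, the 34 genes have 39 promoters. The hexamer was in 7 of the 39 (17.9%), against 16.3% of all promoters, 1 each for Acadm, Acadvl, Acsl6, Cd36, Cpt1a, Cpt1c and Echs1. Below are the promoters of Cd36 and Echs1, which were among the lower members, of Cpt1a, which was not, and of Hadha, whose start faces that of Hadhb across a gap of 271 bases. They run 5′ to 3′ on the strand of the gene, and capitals mark the hexamer on either strand (AGGTCA, or TGACCT where it lies on the other strand). No motif was found in the Hadha window. The start behind the Cd36 window lies 53064 bases inside the gene as deposited, so it is an internal start and not the outermost one. The other 3 starts are within 3 bases of the deposited edge.
Cd36 (chr5:17835847-17836146, minus strand): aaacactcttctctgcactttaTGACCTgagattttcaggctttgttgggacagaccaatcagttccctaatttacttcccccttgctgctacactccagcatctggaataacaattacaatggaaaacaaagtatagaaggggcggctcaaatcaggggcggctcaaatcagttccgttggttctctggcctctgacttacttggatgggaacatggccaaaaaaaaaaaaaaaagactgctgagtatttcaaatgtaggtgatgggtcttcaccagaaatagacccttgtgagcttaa
Echs1 (chr7:140116372-140116671, minus strand): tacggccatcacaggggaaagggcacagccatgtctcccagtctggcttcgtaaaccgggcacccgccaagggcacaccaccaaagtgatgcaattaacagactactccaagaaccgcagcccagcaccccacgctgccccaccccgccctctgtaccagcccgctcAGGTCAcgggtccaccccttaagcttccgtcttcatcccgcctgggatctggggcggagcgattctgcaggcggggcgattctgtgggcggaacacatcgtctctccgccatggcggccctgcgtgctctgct
Cpt1a (chr19:3323051-3323350, plus strand): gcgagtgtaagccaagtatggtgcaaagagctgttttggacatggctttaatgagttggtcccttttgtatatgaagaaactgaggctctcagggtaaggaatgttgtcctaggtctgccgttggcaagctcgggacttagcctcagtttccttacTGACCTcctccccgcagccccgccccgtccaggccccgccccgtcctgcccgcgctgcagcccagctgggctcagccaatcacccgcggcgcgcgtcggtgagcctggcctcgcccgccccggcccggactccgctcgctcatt
Hadha (chr5:30154931-30155230, minus strand): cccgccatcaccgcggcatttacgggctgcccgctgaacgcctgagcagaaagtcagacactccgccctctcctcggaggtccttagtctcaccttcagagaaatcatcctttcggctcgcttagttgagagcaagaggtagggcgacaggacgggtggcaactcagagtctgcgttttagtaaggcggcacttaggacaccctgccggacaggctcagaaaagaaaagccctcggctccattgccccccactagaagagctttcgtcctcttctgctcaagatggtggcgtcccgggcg

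At the uptake step all 5 members had a negative log2 fold change (median -0.14). Of the 5, 1, Cd36, had an unadjusted p under 0.05 (20%, against 8.53% of all genes on the lower side). Cd36 (mm10 chromosome 5, 17781690 to 17888960, minus strand), the membrane glycoprotein that takes up long-chain fatty acids, had 139, 144, 147 and 147 CPM in cKO, against 167, 153 and 158 CPM in control. The groups did not overlap, and the log2 difference was -0.14 (SE 0.040, adjusted p = 0.107 by edgeR). Every cKO library also lay below every control for 8.3% of all genes.

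Lpl, the lipase that frees fatty acids at the vessel wall, had 268, 316, 326 and 323 CPM in cKO and 326, 380 and 322 CPM in control. The groups overlapped, with cKO replicate 1 far below the rest and control replicate 2 far above, and the log2 difference was -0.15 (SE 0.079). It was -0.0884 without cKO replicate 1 and -0.0697 without control replicate 2. Fabp3, the cytosolic binding protein of heart and the member with the highest level per kilobase of exon, had 216, 238, 246 and 256 CPM in cKO and 245, 230 and 252 CPM in control. Its groups overlapped nearly fully (log2 -0.02, SE 0.0585). The fatty acid transport proteins were measured at lower levels: Slc27a1 averaged 13.7 ± 1.25 CPM in cKO and 15.5 ± 2.08 CPM in control (SD, 4 and 3 libraries; log2 -0.19, SE 0.100, and -0.0691 without control replicate 2). Slc27a4 averaged 37.1 ± 1.13 CPM in cKO and 38.7 ± 0.749 CPM in control (log2 -0.06, SE 0.040).

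The acyl-CoA synthetases, which attach coenzyme A to a free fatty acid, did not lie on one side. Acsl4 (chromosome X, 142317993 to 142390536, minus strand), which prefers arachidonate and other polyunsaturated fatty acids, had 77.0, 78.9, 81.4 and 78.3 CPM in cKO against 73.6, 71.7 and 71.1 CPM in control. Acsl5 (chromosome 19, 55253369 to 55296629, plus strand), a synthetase of mitochondria and endoplasmic reticulum, had 62.3, 69.0, 68.1 and 65.6 CPM in cKO against 58.4, 59.9 and 59.8 CPM in control. For both genes every cKO library was above every control, as for 8.68% of all genes. The log2 differences were 0.13 (SE 0.034, adjusted p = 0.100 by edgeR) for Acsl4 and 0.16 (SE 0.042, adjusted p = 0.100 by edgeR) for Acsl5. Acsl4 is X-linked and the cKO group holds 2 libraries that express Xist. In the Y-linked libraries alone its log2 difference was 0.11.

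Acsl3 and Acsl1 lay on the other side. Acsl3 (chromosome 1, 78657825 to 78707744, plus strand), a synthetase of the endoplasmic reticulum and lipid droplets, had 114, 128, 134 and 126 CPM in cKO against 139, 132 and 153 CPM in control. Its groups overlapped, since cKO replicate 3 exceeded control replicate 2, and the log2 difference was -0.17 (SE 0.063, adjusted p = 0.206 by edgeR). It was -0.1061 without control replicate 3 and -0.1065 in the F169 libraries alone. Acsl1, the synthetase that channels fatty acids to oxidation in the adult heart, had 62.2, 71.8, 71.6 and 72.5 CPM in cKO and 82.7, 67.2 and 73.7 CPM in control. The groups overlapped and cKO replicate 1 stood apart (log2 -0.10, SE 0.0745), and control replicate 1 was highest. The difference was -0.0498 without cKO replicate 1 and -0.0166 without control replicate 1. The ratio of Acsl1 to Acsl3 within a library thus did not part the groups: its log2 averaged -0.85 ± 0.048 in cKO and -0.92 ± 0.16 in control (SD, 4 and 3 libraries). The difference was 0.07 (exact two-sided permutation test, p = 0.4, adjusted p = 0.4 over 4 ratios). Acsl6, a synthetase of brain and red cells, was near the floor of detection with 10 to 13 counts in cKO and 9 to 12 in control.

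**Figure D2:**
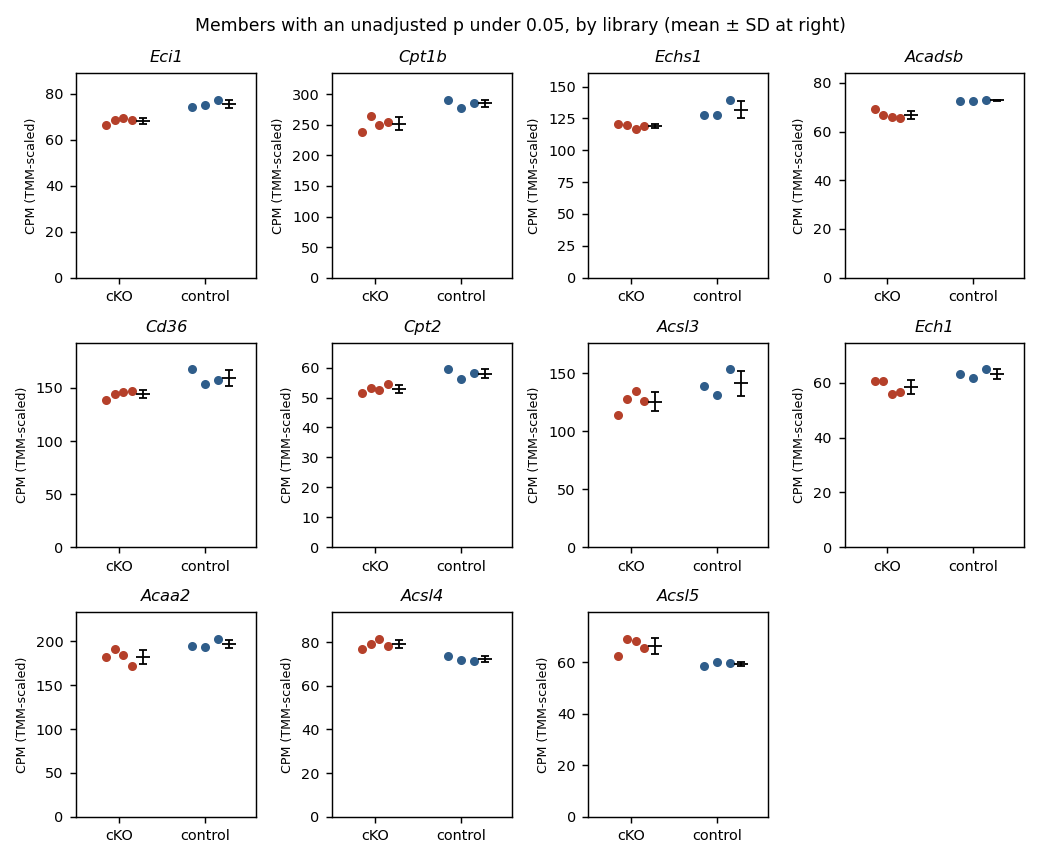
TMM-scaled CPM (y axis, from 0) of the 11 members with an unadjusted p under 0.05, with each point a library, cKO at left and control at right, and the mean ± SD beside the points. The 4 cKO points lie below the 3 control points for 8 of the 9 lower genes, with overlap for Acsl3, and above them for Acsl4 and Acsl5. These 11 were picked for a low p, and of all genes 8.3% lay below and 8.68% above in this way.

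The carnitine shuttle held the member with the smallest relative level among those lower with an unadjusted p under 0.05. Cpt1b (chromosome 15, 89416405 to 89425863, minus strand), the muscle form of the outer membrane carnitine palmitoyltransferase that commits fatty acids to oxidation, had 238, 265, 250 and 255 CPM in cKO against 291, 278 and 286 CPM in control. The groups did not overlap, and cKO averaged 88.4% of control (log2 -0.18, SE 0.042, adjusted p = 0.0815 by edgeR). Cpt2 (chromosome 4, 107903982 to 107923590, minus strand), which rebuilds acyl-CoA on the inner membrane, had 51.5, 53.1, 52.5 and 54.7 CPM in cKO against 59.4, 56.3 and 58.4 CPM in control. These groups did not overlap either (log2 -0.13, SE 0.037, adjusted p = 0.114 by edgeR).

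Cpt1a, the liver form of the same transferase and the form prominent in fetal heart, had 104, 103, 105 and 97.7 CPM in cKO and 99.1, 107 and 97.0 CPM in control. Its groups overlapped (log2 0.02, SE 0.042). The count ratio of Cpt1b to Cpt1a was therefore lower in each cKO library than in each control: it ran from 2.30 to 2.61 in cKO and from 2.61 to 2.95 in control, and cKO replicate 4 nearly met control replicate 2 on the log2 scale (1.383 and 1.386). The mean log2 ratio was 1.30 ± 0.086 in cKO and 1.5 ± 0.098 in control (SD, 4 and 3 libraries), a difference of -0.20. By an exact permutation test (two-sided) p was 0.0286, which no arrangement of the 35 can undercut, and 0.114 when adjusted over the 4 ratios examined. Such a ratio shows unequal change of the paired genes, not which of them differed. Per kilobase of exon Cpt1b was the more abundant in both groups, with 74.8 ± 3.29 CPM per kilobase in cKO and 84.5 ± 1.86 in control, against 13.4 ± 0.412 in cKO and 13.2 ± 0.654 in control for Cpt1a.

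None of the other shuttle genes had an unadjusted p under 0.05. Slc25a20, the carrier that exchanges acylcarnitine for carnitine across the inner membrane, averaged 55.6 ± 1.49 CPM in cKO and 56.5 ± 2.12 CPM in control (SD, 4 and 3 libraries; log2 -0.02, SE 0.040). Crat, which buffers acetyl-CoA as acetylcarnitine, averaged 153 ± 7.91 CPM in cKO and 160 ± 5.72 CPM in control (log2 -0.06, SE 0.046). Mlycd, the decarboxylase that removes the CPT1 inhibitor malonyl-CoA, averaged 19.3 ± 0.452 CPM in cKO and 19.7 ± 1.25 CPM in control (log2 -0.04, SE 0.056). Cpt1c, the neuronal form, was measured at a low level, with 8.37 ± 1.03 CPM in cKO and 9.41 ± 0.494 CPM in control (log2 -0.17, SE 0.10), a difference of the size seen for Cpt1b but with a larger error. Acyl-CoA thioesterases, which reverse activation by splitting off coenzyme A, had 3 of 3 negative values, from -0.05 for Acot13 to -0.10 for Acot1, with none at an unadjusted p under 0.05. Acot1 and Acot2 are near-identical neighbours on chromosome 12, so how the counting shared reads between them is uncertain.

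**Figure D3:**
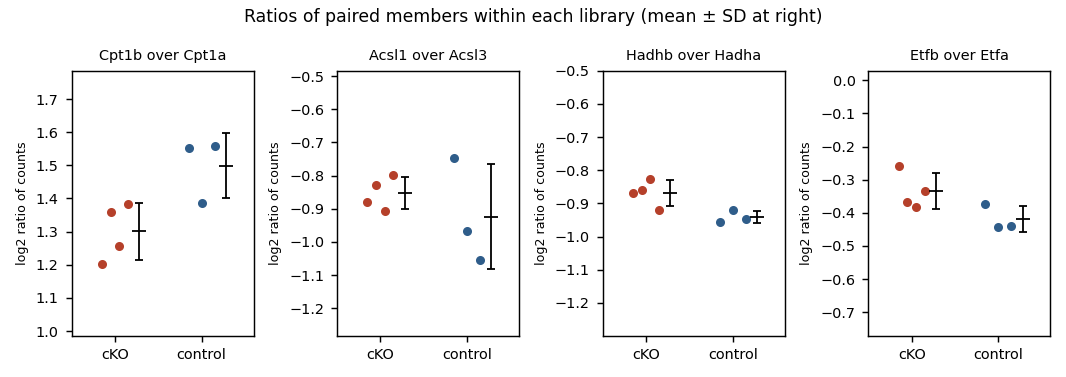
Log2 ratio of counts within each library (y axis, 0.8 log2 units high in every panel) for Cpt1b over Cpt1a, Acsl1 over Acsl3, Hadhb over Hadha and Etfb over Etfa, with cKO at left, control at right and the mean ± SD beside the points. The cKO points of Cpt1b over Cpt1a lie at 1.20 to 1.38 and the control points at 1.39 to 1.56, while the Acsl1 over Acsl3 groups overlap.

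Of the 8 acyl-CoA dehydrogenases, which open each round in the matrix, 7 had a negative log2 fold change (median -0.05). The long, medium and very long chain enzymes overlapped between groups. Acadl had 505, 565, 537 and 573 CPM in cKO and 566, 503 and 531 CPM in control (log2 0.03, SE 0.056). Acadm had 202, 221, 217 and 222 CPM in cKO and 236, 217 and 230 CPM in control (log2 -0.08, SE 0.046, and -0.0485 without cKO replicate 1). Acadvl had 122, 131, 126 and 127 CPM in cKO and 133, 131 and 131 CPM in control (log2 -0.06, SE 0.033). For each of these 3 genes cKO replicate 1 held the lowest value of the cKO group.

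Acadsb (chromosome 7, 131410601 to 131446212, plus strand), the dehydrogenase for short branched-chain acyl-CoA from isoleucine, was the 1 dehydrogenase of 8 with an unadjusted p under 0.05 (12.5%, against 8.53% of all genes on the lower side). It had 69.1, 66.8, 65.8 and 65.6 CPM in cKO against 72.6, 72.6 and 73.0 CPM in control. The groups did not overlap, and the controls were within 1 CPM of each other (log2 -0.12, SE 0.033, adjusted p = 0.105 by edgeR). Acads, the short chain enzyme, averaged 98.8 ± 2.62 CPM in cKO and 101 ± 3.60 CPM in control (SD, 4 and 3 libraries). Acad9, which also serves the assembly of respiratory complex I, averaged 73.9 ± 2.41 CPM in cKO and 76.2 ± 1.04 CPM in control. Acad10 and Acad11 were measured at 2.55 ± 0.451 and 20.9 ± 0.554 CPM in cKO and at 3.03 ± 0.305 and 21.1 ± 1.19 CPM in control. Their log2 differences were -0.25 (SE 0.16), the most negative value of the 41 members, and -0.02 (SE 0.054). In the Y-linked libraries alone that of Acad10 was -0.0566.

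The next steps split by enzyme. Echs1 (chromosome 7, 140105723 to 140116424, minus strand), the short chain enoyl-CoA hydratase of the matrix, had 121, 120, 117 and 119 CPM in cKO against 128, 128 and 140 CPM in control. The groups did not overlap, and control replicate 3 was the highest (log2 -0.15, SE 0.038, adjusted p = 0.0955 by edgeR). Acaa2 (chromosome 18, 74779212 to 74806208, plus strand), a thiolase of the matrix, had 181.9, 191.4, 184.7 and 172.0 CPM in cKO against 194.1, 194.0 and 202.6 CPM in control, again without overlap (log2 -0.11, SE 0.042, adjusted p = 0.216 by edgeR). In the F169 libraries alone its log2 difference was -0.0593 (adjusted p = 0.578 by edgeR).

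Hadha and Hadhb encode the alpha and beta subunits of the mitochondrial trifunctional protein, which performs the hydration, second dehydrogenation and cleavage of long chains. Hadha had 394, 428, 400 and 415 CPM in cKO and 439, 409 and 432 CPM in control (log2 -0.06, SE 0.043, and -0.038 without control replicate 1). Hadhb had 216, 236, 226 and 220 CPM in cKO and 226, 216 and 224 CPM in control (log2 0.01, SE 0.0405). Both sets overlapped between groups. The log2 ratio of Hadhb to Hadha averaged -0.87 ± 0.039 in cKO and -0.94 ± 0.019 in control (SD, 4 and 3 libraries), a difference of 0.07 (exact two-sided permutation test, p = 0.0571, adjusted p = 0.114 over 4 ratios). Hadh, the short chain hydroxyacyl-CoA dehydrogenase, averaged 176 ± 3.72 CPM in cKO and 173 ± 14.2 CPM in control (log2 0.02, SE 0.053). Acaa1a, a peroxisomal thiolase, averaged 47.9 ± 1.98 CPM in cKO and 47.7 ± 3.30 CPM in control (log2 0.0044, SE 0.054).

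The auxiliary enzymes, which bring the double bonds of unsaturated fatty acids into the right position, had 4 of 4 negative values. Of the 4, 2 had an unadjusted p under 0.05 (50%, against 8.53% of all genes on the lower side). Eci1 (chromosome 17, 24426683 to 24439317, plus strand), the mitochondrial enoyl-CoA isomerase, had the smallest p of the set. It had 66.4, 68.6, 69.4 and 68.8 CPM in cKO against 74.4, 75.0 and 77.4 CPM in control. The groups were clearly apart (log2 -0.15, SE 0.034, adjusted p = 0.0751 by edgeR). Ech1 (chromosome 7, 28825338 to 28832240, plus strand), a dienoyl-CoA isomerase, had 60.7, 60.6, 55.9 and 56.8 CPM in cKO against 63.2, 61.6 and 64.9 CPM in control (log2 -0.11, SE 0.042, adjusted p = 0.215 by edgeR). Within cKO its lowest values were those of the Xist-expressing replicates 3 and 4, and in the Y-linked libraries alone the log2 difference was -0.0593 (adjusted p = 0.622 by edgeR). Eci2, an isomerase of mitochondria and peroxisomes, averaged 63.9 ± 2.03 CPM in cKO and 66.9 ± 1.37 CPM in control (SD, 4 and 3 libraries; log2 -0.07, SE 0.037). Decr1, the dienoyl-CoA reductase, averaged 67.8 ± 1.28 CPM in cKO and 68.6 ± 1.26 CPM in control (log2 -0.02, SE 0.033).

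Electrons from the acyl-CoA dehydrogenases pass to the electron transfer flavoprotein (Etfa and Etfb) and through its dehydrogenase (Etfdh) to ubiquinone. None of the 3 had an unadjusted p under 0.05. Etfa averaged 185 ± 10.2 CPM in cKO and 190 ± 3.42 CPM in control, and Etfb 146 ± 3.52 CPM in cKO and 142 ± 1.46 CPM in control (SD, 4 and 3 libraries). The log2 differences were -0.04 (SE 0.046) and 0.04 (SE 0.032), and the log2 ratio of Etfb to Etfa differed by 0.08 (exact two-sided permutation test, p = 0.114, adjusted p = 0.152 over 4 ratios). Etfdh averaged 174 ± 2.73 CPM in cKO and 177 ± 4.80 CPM in control (log2 -0.03, SE 0.033).

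**Figure D4:**
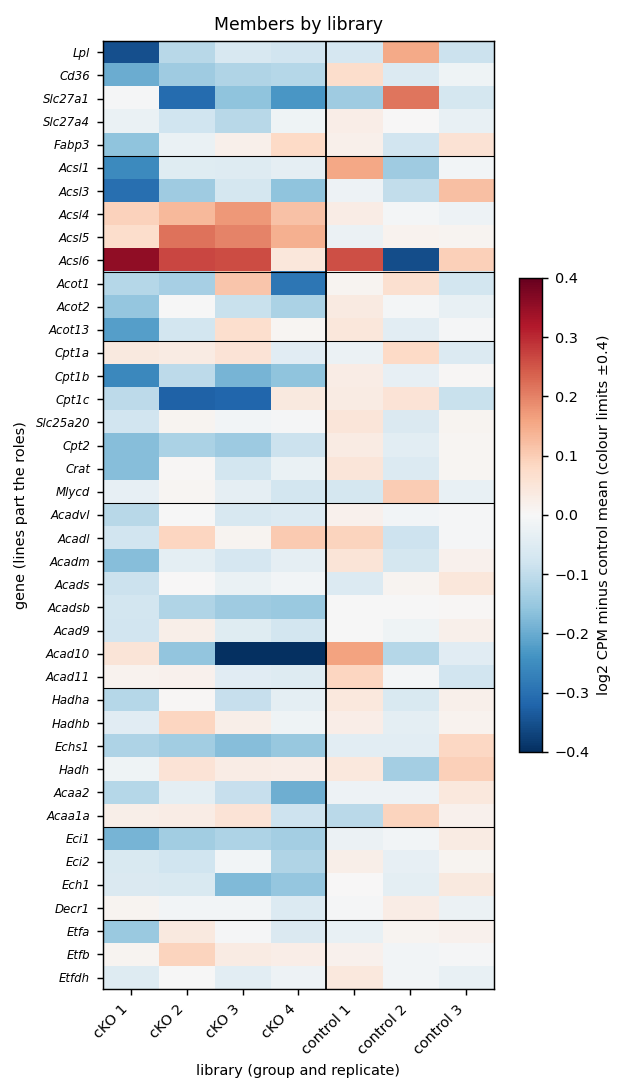
Log2 CPM minus the control mean for each of the 41 members (rows, parted by role) in each library (columns, 4 cKO then 3 control), with blue below and red above the control mean and colours capped at ±0.4. The column of cKO replicate 1 is the bluest, holding the lowest value of 20 of the 41 genes.

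The members' values were not spread evenly over the libraries. cKO replicate 1 held the lowest value of 20 of 41 members (48.8%), against 15.4% of all genes, and control replicate 1 held the highest value of 15 (36.6%), against 12.7% of all genes. Relative to the control mean, the median member stood at -0.08, -0.01, -0.05 and -0.05 log2 units in cKO replicates 1 to 4 and at 0.02, -0.02 and 0.0048 in the controls. cKO replicate 2 thus overlapped with control replicate 2. cKO replicate 1 is also the library with the lowest heart muscle marker sum and with liver transcripts, and the part of these in the result was not tested. Without it the median of the members was -0.04, against -0.01 for all genes, 10 members had an unadjusted p under 0.05 on the lower side and 0 were called.

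Levels per kilobase of exon (GENCODE vM21 exon lengths, not the annotation used for counting) ranged widely. Fabp3 led with 291 ± 20.5 CPM per kilobase in cKO and 295 ± 14.1 in control (SD, 4 and 3 libraries). Acadl followed with 272 ± 15.4 in cKO and 266 ± 15.8 in control. Acaa2 had 120 ± 5.31 CPM per kilobase in cKO and 130 ± 3.27 in control, and Etfb 126 ± 3.02 in cKO and 122 ± 1.25 in control, so the order of these neighbours differed between the groups. Acad10 and Acsl6 were lowest, at 0.421 and 0.0344 CPM per kilobase in cKO and 0.499 and 0.0296 in control. Among members that overlap another listed gene, Acsl3 shares its strand with Utp14b (9.88 CPM in cKO, 11.3 CPM in control) and Cpt1b with Gm44502 (21.5 CPM in cKO, 21.3 CPM in control), and their counts are uncertain to that extent. Fabp3, Crat, Acad11, Hadha and Etfdh overlap a gene on the opposite strand, and the strand setting of the counting is not given.

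In the lists around the pathway 1 gene was called, of peroxisomal oxidation, where 1.09% of all genes were called. Phyh, the peroxisomal phytanoyl-CoA hydroxylase that starts alpha-oxidation of branched fatty acids, fell to 84.3, 84.5, 81.1 and 84.1 CPM in cKO, against 101, 94.5 and 106 CPM in control (log2 -0.26, SE 0.042, adjusted p = 0.0243 by edgeR). The groups did not overlap. The call was lost without cKO replicate 2, 3 or 4 (adjusted p = 0.0850, 0.0764 and 0.0514 by edgeR) or control replicate 1 or 3 (0.0806 and 0.0865), within F169 (0.122), in the Y-linked libraries alone (0.173) and when a term for Y-linked expression was added (0.144), with log2 values from -0.31 to -0.23 over the libraries left out. Hacl1, the lyase that follows Phyh, averaged 7.49 ± 0.664 CPM in cKO and 9.10 ± 0.229 CPM in control (SD, 4 and 3 libraries; log2 -0.28, SE 0.085, adjusted p = 0.135 by edgeR). The peroxisomal oxidase Acox3 had a log2 difference of -0.22 (SE 0.059, adjusted p = 0.106 by edgeR). Of 17 tested peroxisomal genes 1 was called lower and 0 higher. Of the 17, 11 were negative (64.7%, against 52.1% of all genes), with a median of -0.03. An unadjusted p under 0.05 was reached by 3 on the lower side (17.6%, against 8.53% of all genes) and 0 on the higher.

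Of 25 tested regulators 0 were called and 19 were negative (76%, against 52.1% of all genes), with a median of -0.08. At an unadjusted p under 0.05, 5 were lower (20%, against 8.53% of all genes) and 0 higher (against 9.39%). Every cKO library lay below every control for 1 of the 25 (4%), against 8.3% of all genes. Ppara, the gene of PPAR alpha, had 11.96, 13.30, 11.88 and 14.49 CPM in cKO and 18.58, 13.64 and 17.20 CPM in control. Its groups overlapped through control replicate 2 (log2 -0.35, SE 0.11, adjusted p = 0.153 by edgeR). Ppargc1a, the coactivator PGC-1 alpha, had 137, 144, 139 and 157 CPM in cKO and 161, 149 and 181 CPM in control, with overlap (log2 -0.18, SE 0.068, adjusted p = 0.201 by edgeR). Esrrb, an estrogen-related receptor, averaged 16.7 ± 1.75 CPM in cKO and 20.2 ± 1.84 CPM in control (SD, 4 and 3 libraries; log2 -0.27, SE 0.091, adjusted p = 0.172 by edgeR). Ppard (0.07, SE 0.068), Esrra (0.04, SE 0.037) and Esrrg (-0.05, SE 0.057), other receptors of the pathway, had smaller log2 differences.

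**Figure D5:**
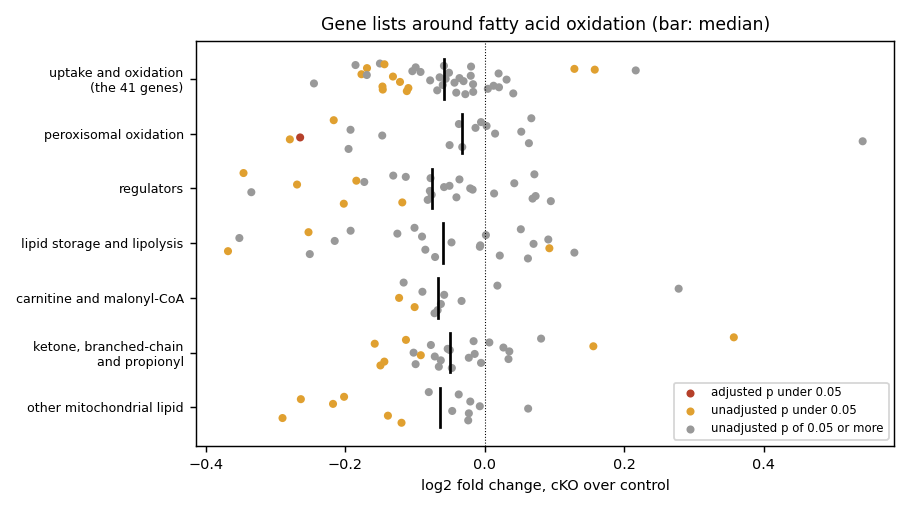
Log2 fold change, cKO over control (x axis), of each tested gene in the 41 fatty acid genes and in 6 lists around them (rows), with a bar at each median. The medians lie between -0.08 and -0.03, and Phyh is the 1 red point, called at an adjusted p under 0.05.

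Of 22 tested genes of lipid storage and lipolysis 0 were called, with 14 negative (63.6%, against 52.1% of all genes) and a median of -0.06. An unadjusted p under 0.05 was reached by 2 on the lower side (9.09%, against 8.53% of all genes) and 1 on the higher. Mgll, the monoglyceride lipase, had -0.25 (SE 0.080), the adipocyte-type binding protein Fabp4, also an endothelial gene, -0.37 (SE 0.13; -0.52 without cKO replicate 4, adjusted p = 0.0243 by edgeR), and the acyltransferase Gpat4 0.09 (SE 0.032) on the log2 scale. Of 11 genes of carnitine supply and malonyl-CoA 0 were called and 9 were negative (81.8%, median -0.07). Of the 11, 2 had an unadjusted p under 0.05 on the lower side (18.2%) and 0 on the higher. The 3 with the smallest p were Acacb, the carboxylase that makes the malonyl-CoA controlling CPT1 (-0.12, SE 0.049), Mcat (-0.10, SE 0.044) and Aldh9a1 (-0.09, SE 0.043). Of 25 genes of ketone, branched-chain and propionyl-CoA metabolism 0 were called and 18 were negative (72%, median -0.05). Of the 25, 5 had an unadjusted p under 0.05 on the lower side (20%) and 2 on the higher. Aldh6a1 of valine breakdown had -0.14 (SE 0.032, adjusted p = 0.0688 by edgeR), while Dbt of the branched-chain dehydrogenase had 0.16 (SE 0.043) and the ketone enzyme Bdh1 0.36 (SE 0.10). DESeq2 called Aldh6a1 and Bdh1. Of 14 tested genes of other mitochondrial lipid handling 0 were called and 13 were negative (92.9%, median -0.06). Of the 14, 6 had an unadjusted p under 0.05 on the lower side (42.9%, against 8.53% of all genes). The 3 with the smallest p were the pyruvate dehydrogenase kinase Pdk4 (-0.12, SE 0.043), Echdc3 (-0.26, SE 0.11) and Etfbkmt, which methylates the beta subunit of the electron transfer flavoprotein (-0.22, SE 0.089).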

How the data were processed

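RNA-seq libraries were made from whole ventricle with a directional kit, per the labels' protocols. The authors deposited estimated counts for 15358 genes, not scaled to library size. Per the submitters' processing notes, STAR 2.4.2a, HTSeq 0.6.1 and mm10 were used, in roles not stated. The strand setting and the step that gave fractional values are not given in the sources used here. Counts were rounded, because 30.3% of the entries had a fractional part. Columns were matched by the code in each title. The 1 unmatched value column equalled the sum of the 7 libraries in all 15358 rows (tolerance 1e-06 counts) and was not used. Nothing says that samples of a group differ in litter, so a p-value covers only the spread between them. In cKO that spread includes a difference of sex, since replicates 1 and 2 expressed Ddx3y and replicates 3 and 4 Xist. These came from different embryos, and the rest of the spread may be technical.

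Genes were filtered with filterByExpr (minimum count 10), which left 14875 and removed 483. Libraries were scaled by TMM and compared with the quasi-likelihood test of edgeR 4.0.16 (R 4.3.3), Benjamini-Hochberg adjusted over all genes, with a threshold of 0.05. Levels are TMM-scaled CPM. Fold changes (log2) set cKO over control. The 4 ratios were tested by exact permutation. The edgeR step was tested on simulated data. Alternatives were DESeq2 1.42.0 and its size factors, upper-quartile factors, no filter, limma-voom (limma 3.58.1), a replicate block, a term for the title code (F169 or F191, of unstated meaning), the F169 libraries alone, a term for Y-linked expression (Ddx3y above 1 CPM), the libraries with it alone, and each library left out. Members and lists were chosen with earlier results of these data known. Named with values by library are members with an unadjusted p under 0.05 or non-overlapping groups and a preset group of key enzymes. Of each surrounding list, called genes and the 3 smallest p are named. Ppard, Esrra and Esrrg were added after their values were seen.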

Additional observations from a re-analysis of the deposited data

Results flagged for a closer look

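Among the 41 members and the 4 ratios, the cKO group of 4 libraries was examined for a library far from the others, by the gap to its nearest neighbour as a share of the whole range on the log2 scale (Dixon's test). About 1 in 20 groups would be flagged by chance. In Acsl1, cKO replicate 1 lay below the other cKO libraries by a share of 0.921 of the range, at 62.2 CPM against 71.6 to 72.5 CPM. In Lpl the same library lay below the others by a share of 0.842, at 268 CPM against 316 to 326 CPM.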

How the results depend on the processing

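Of the 340 values of the 20 members described by library under the 17 alternatives, 329 kept their direction and their side of the threshold. Of the rest, 6 changed sign and 5 were calls by DESeq2. None of the 20 was called in the main fit, so keeping its side says only that a member was again not called. The 20 also leave out members whose sign turned. The 11 members with an unadjusted p under 0.05 kept their sign in all 17. That could hardly be otherwise, since these 11 were picked for a difference in the same libraries. Groups did not overlap for 8 of the 9 lower and for the 2 higher, so leaving libraries out could hardly turn their sign. Over all 41 members these are 8 on the lower side (19.5%, against 8.3% of all genes) and 2 on the higher (against 8.68% of all genes). The median of the members moved by less than 0.025 log2 units in each alternative, which is the SD of that median between libraries of a group. It was -0.0586 in the main fit and -0.0388 without cKO replicate 1. The alternatives reuse the same libraries, so they are no independent check. DESeq2 called 4 members lower and 1 higher, against 0 and 0 by edgeR. The number of genes called, 162, was 621 with DESeq2, 20 within F169, 20 when a term for Y-linked expression was added, 17 in the Y-linked libraries alone and 28 to 133 with 1 library left out. The cause was not tested, beyond the fewer libraries in some of these. Phyh (log2 -0.26) was also not called within F169 and in the Y-linked libraries.

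The Cpt1b to Cpt1a difference of -0.20 was -0.20 within F169 (p = 0.200), -0.22 in the Y-linked libraries (p = 0.200) and -0.26 to -0.17 with 1 library left out, by exact permutation tests in which these fewer libraries allow no p under 0.05. The Acsl1 to Acsl3 difference turned to -0.0137 within F169. With 1 library left out, Fabp3 ran from -0.0573 to 0.0251 (0.0251 without cKO replicate 1 and 0.0101 without control replicate 3), Cpt1a from -0.0075 to 0.0611, Acadl from -0.0091 to 0.0781 and Hadhb from -0.0103 to 0.031 (-0.0069 without control replicate 2).

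With the replicate number as a block 13 genes were called, 0 of them members, Phyh had an adjusted p of 0.150 by edgeR, and the Cpt1b to Cpt1a difference was -0.23 (exact sign-flip permutation, p = 0.250). Libraries of the same number did not deviate together (r = 0.04, -0.08 and -0.08), so they share only a number. The controls that correlated best with cKO replicates 1, 2 and 3 were control replicates 2, 3 and 2, none with the same number. Beside the values in the results, differences that moved by over 1.5 times included those of Acot1 (-0.1797 without cKO replicate 3, -0.043 without cKO replicate 4), Crat (-0.0317 without cKO replicate 1), Cpt1c (-0.2892 within F169), Eci2 (-0.0436 within F169), Acsl6 (0.0517 without control replicate 2), and, in the Y-linked libraries, Lpl (-0.229) and Acsl1 (-0.1513). Of the 41 members, 31 kept their sign in all 17 alternatives. Beside Fabp3, Cpt1a, Acadl and Hadhb, the sign turned at least once for Acaa1a (-0.046 to 0.0512), Acad11 (-0.0541 to 0.0276) and Hadh (-0.0448 to 0.0693). It also turned for Slc25a20 (-0.0493 to 0.0059), Mlycd (-0.0693 to 0.0169) and Acot13 (-0.1448 to 0.0003). Etfa (-0.0071 without cKO replicate 1) and Etfdh (-0.0042 without control replicate 1) came near 0. Depth limits the lowest members, such as Acsl6 with 9 to 13 counts a library (SE 0.27 on the log2 scale).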
